A study of Mus musculus with 28 samples.

Results

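Expression of 32 genes of the peroxisome was measured in mouse liver: 13 peroxins, the PEX proteins that build the organelle, 16 enzymes of its matrix that lie outside the core fatty acid beta-oxidation spiral, and 3 proteins of its membrane. They were taken by gene symbol from a table of 17792 genes and all 32 were found in it. The study sequenced RNA from whole liver of C57BL/6 mice in 28 libraries, in a design of genotype, agent and time with 8 groups. Knockout mice (KO) lacked Pparg in macrophages by label, with no statement of the promoter that drove the deletion, and wild-type mice (WT) stood beside them. The groups were KO mice given di(2-ethylhexyl) phthalate (DEHP), KO mice given the vehicle 0.5% carboxymethyl cellulose (CMC), WT mice given DEHP and WT mice given CMC, each for 28 or 90 days. DEHP, a plasticizer whose metabolite activates the nuclear receptor PPARalpha in rodent liver, was given by gavage at 625 mg/kg, and all groups shared gavage and strain. Each group held 3 libraries at 28 days (replicates 5 to 7) and 4 at 90 days (replicates 1 to 4). The labels give 12 mice per group and do not tie a library to a mouse, so the p-values measure the spread between libraries, which may be technical.

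Peroxisomes are organelles with a single membrane that oxidise fatty acids and other substrates, make hydrogen peroxide in doing so and break it down again. Their matrix enzymes are made in the cytosol and brought in by receptors that dock at the membrane, are tagged with ubiquitin and are pulled out again for another round, while membrane proteins are inserted by a separate set of peroxins. In the livers of rats and mice, agonists of PPARalpha enlarge and multiply peroxisomes, and the genes of peroxisomal beta-oxidation are classical targets of that receptor. Other functions of the organelle in liver include alpha-oxidation of branched fatty acids, ether lipid synthesis, glyoxylate handling and epoxide hydrolysis.

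The values are FPKM, fragment counts scaled to transcript length and library depth, as the authors deposited them. Library depth, estimated from the steps between low FPKM values, ran from 9.44 to 14.72 M fragments (M for mega). The 9 hepatocyte marker genes were above 0 in all 28 libraries, with Alb between 14340 and 42760 FPKM. At 90 days 5 libraries (KO DEHP replicates 1, 2 and 3, WT DEHP replicate 4 and WT CMC replicate 4) carried transcripts of 12 exocrine pancreas genes, summing to between 8842 and 37354 FPKM, against at most 49.7 FPKM in the other 23 libraries. Differences between the agents at 90 days that passed the tests below are therefore given with and without these 5. Other values of 90 days are from all libraries unless stated. Leaving out the 5 leaves the KO DEHP group with replicate 4 alone, so that its spread is assumed to be that of the other groups. The labels call all mice male, yet Xist reached 26.7 to 41 FPKM at 28 days with the Y-linked Ddx3y at 0, while at 90 days Xist was at most 0.02 FPKM and Ddx3y at least 6.27 FPKM, so time and sex cannot be told apart. Apart from these, 3 libraries had low sums of endothelial markers: WT DEHP replicate 5 with 37.1 FPKM and WT CMC replicate 7 with 51.1 FPKM, where the other 10 libraries of 28 days had at least 111.86 FPKM, and KO DEHP replicate 4 with 48.4 FPKM, where the other 15 libraries of 90 days had at least 77.55 FPKM. WT DEHP replicate 5 was also lowest at 28 days in Kupffer and stellate sums, at 185 and 40.7 FPKM.

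The promoters of the members were read as the 250 bases before each RefSeq gene start on GRCm38.p6, where 26 of the 32 genes were matched in 30 windows. Pex2, Pex19, Ephx2, Amacr, Nudt12 and Pxmp2 were not matched. The windows printed here belong to the peroxins with the highest DEHP responses that were matched, Pex11a (chr7:79743132-79743381, minus strand) and Pex16 (chr2:92374426-92374675, plus strand), to Pex6 (chr17:46711226-46711475, plus strand), whose transcript differed little between the agents, and to the enzyme genes Eci2 (chr13:34994145-34994394, minus strand), Cat (chr2:103485154-103485403, minus strand) and Hao2 (chr3:98893231-98893480, minus strand). For Eci2 and Hao2 the start lies inside the outer limits of the gene. Each runs from 5′ to 3′ on the strand of the gene, and capitals mark the core motif of nuclear receptors (AGGTCA, or its complement TGACCT) or a GC box (GGGCGG, or its complement CCGCCC).
Pex11a: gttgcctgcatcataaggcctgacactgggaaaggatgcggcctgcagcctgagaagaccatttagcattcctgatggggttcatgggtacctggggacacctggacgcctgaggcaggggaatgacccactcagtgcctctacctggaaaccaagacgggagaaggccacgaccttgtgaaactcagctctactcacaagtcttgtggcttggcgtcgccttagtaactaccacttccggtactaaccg
Pex16: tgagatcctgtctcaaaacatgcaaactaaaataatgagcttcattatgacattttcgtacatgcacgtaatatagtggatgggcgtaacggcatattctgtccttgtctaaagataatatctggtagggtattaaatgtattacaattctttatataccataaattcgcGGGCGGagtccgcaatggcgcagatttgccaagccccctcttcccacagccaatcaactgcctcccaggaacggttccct
Pex6: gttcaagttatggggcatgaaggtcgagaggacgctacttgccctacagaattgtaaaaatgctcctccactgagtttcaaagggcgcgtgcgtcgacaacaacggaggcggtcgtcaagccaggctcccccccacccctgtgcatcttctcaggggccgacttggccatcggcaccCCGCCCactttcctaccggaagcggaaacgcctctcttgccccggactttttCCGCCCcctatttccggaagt
Eci2: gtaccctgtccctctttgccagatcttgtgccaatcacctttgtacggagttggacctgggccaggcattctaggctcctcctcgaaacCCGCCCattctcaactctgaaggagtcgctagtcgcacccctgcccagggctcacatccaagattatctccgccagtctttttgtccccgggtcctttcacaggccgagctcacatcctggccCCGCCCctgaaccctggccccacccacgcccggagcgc
Cat: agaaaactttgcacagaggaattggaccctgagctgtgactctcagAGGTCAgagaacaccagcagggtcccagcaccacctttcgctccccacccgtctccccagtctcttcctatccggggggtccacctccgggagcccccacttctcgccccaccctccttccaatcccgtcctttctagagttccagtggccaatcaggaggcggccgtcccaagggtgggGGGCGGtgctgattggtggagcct
Hao2: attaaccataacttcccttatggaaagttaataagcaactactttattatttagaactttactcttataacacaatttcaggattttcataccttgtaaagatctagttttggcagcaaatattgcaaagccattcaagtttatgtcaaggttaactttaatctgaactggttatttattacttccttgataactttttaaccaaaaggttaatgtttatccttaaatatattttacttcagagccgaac

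These windows differ in what they hold. The GC box, the letters read by Sp1, stood once in the printed window of Pex16, at 2 places in those of Pex6 and Eci2, once in that of Cat and in neither that of Pex11a nor that of Hao2. Another start window of Pex16, which is not printed, held no GC box. The Hao2 window had a GC content of 28.4%, against 55.6% for Pex11a and 61.2% for Eci2. Counting both strands, 19 of the 30 member windows (63.3%) held a GC box, against 32.7% of all 32851 windows and 56.4% of the 11476 windows of the genes tested for expression. By class these were 7 of 11 matched peroxins and 8 of 13 matched matrix enzymes. The nuclear receptor motif was found in 2 member windows (6.67%), those of Cat and Pex11g, against 14.0% of all windows and 11.6% of those of tested genes. The repeat that PPARalpha binds with its partner RXR, searched on both strands as a pair of AGGNCA with 1 base between them, which can overlap the single motif, was in 0 of 30 member windows, against 0.338% of all windows and 0.288% of those of tested genes. These matches describe letters in 250 bases and say nothing of binding elsewhere.

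Under DEHP most of the 32 genes were higher, by small amounts. Differences were tested with limma on log2(FPKM + 1) over 11213 genes, and genes with an adjusted p (Benjamini-Hochberg) under 0.05 were called. Over the mean of the 4 strata, that is each genotype at each time, 21 of 32 members rose under DEHP and 1 fell, where 20.3% of all tested genes were called higher and 15.8% lower. Their median log2 fold change was 0.20, against -0.02 over all tested genes. Of all calls 56.2% were higher, and 41.0% were with upper quartile scaling, under which 19 members rose and 2 fell. The peroxins had 8 higher and 1 lower of 13, with a median of 0.18. The matrix enzymes had 11 higher and 0 lower of 16, with a median of 0.23, and the membrane proteins had 2 higher and 0 lower of 3, with a median of 0.24. Scaling moved the matrix enzymes to 10 higher and 1 lower (Pecr) with upper quartile scaling and to 8 higher and 2 lower (Pecr and Hao1) with quantile normalization, while the peroxins had 8 higher and 1 lower under both. No test was made between these classes, whose members were chosen. The highest peroxins were Pex11a at 1.10 and Pex16 at 0.51, and the highest matrix enzymes Ephx2 at 1.21, Hao2 at 1.00, Eci2 at 0.94 and Hacl1 at 0.60.

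**Figure D1:**
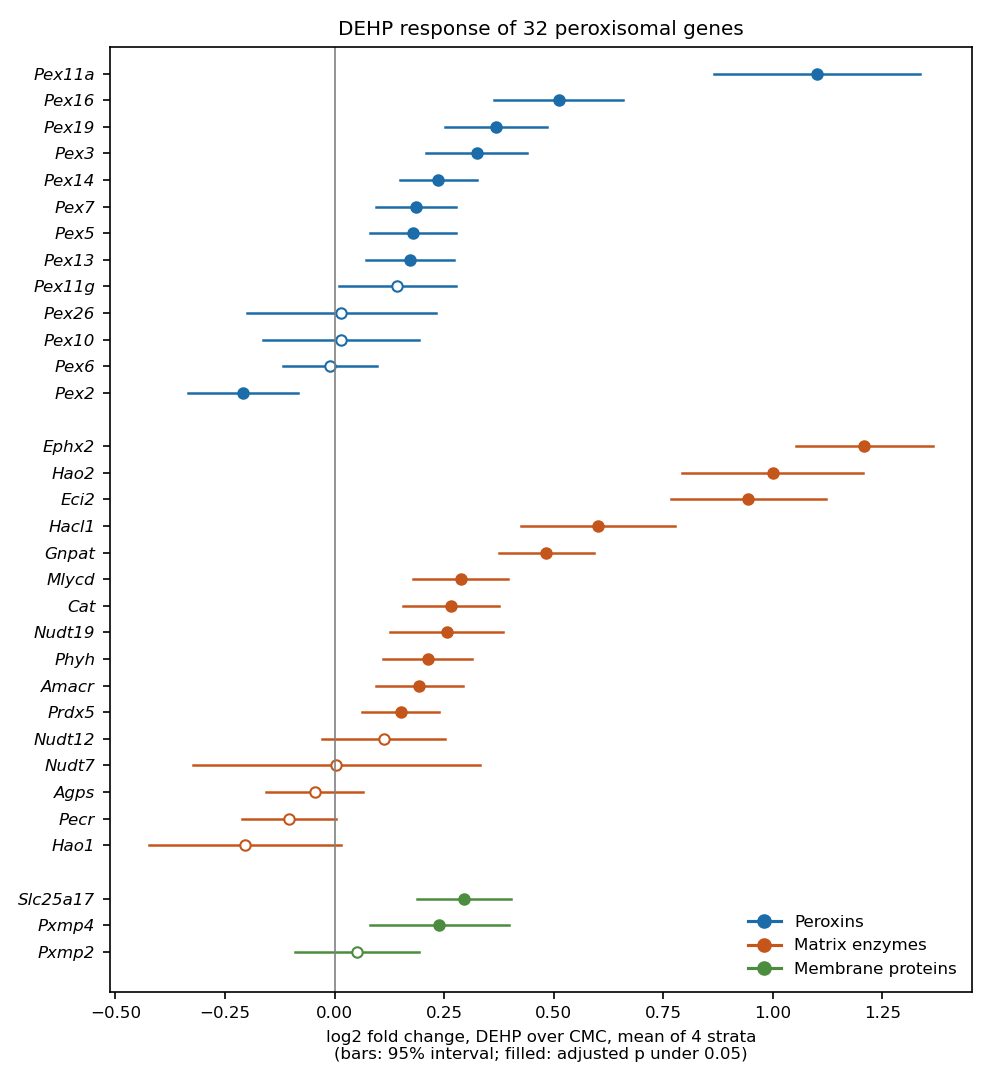
The x axis gives the log2 fold change of DEHP over CMC on the log2(FPKM + 1) scale, averaged over the 4 strata of genotype and time, for each of the 32 genes in 3 classes. Points are fitted values, bars 95% intervals, and filled points have an adjusted p under 0.05. Pex11a stands at 1.10 apart from the other peroxins, which run from -0.21 to 0.51, while the matrix enzymes spread from -0.20 to 1.21.

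At 28 days the response was widest. In KO livers 16 of 32 members rose and 1 fell, where 11.6% of all tested genes were higher and 8.77% lower. In WT livers 12 rose and 1 fell, where 10.3% of all tested genes were higher and 6.17% lower. The median log2 fold change of the members was 0.34 in KO and 0.25 in WT livers, against -0.04 and -0.01 over all tested genes. The DEHP and CMC libraries did not overlap in 21 members in KO livers, 20 higher and 1 lower, where 19.2% and 22.5% of all tested genes were apart in these directions. In WT livers they were apart in 18 members, 17 higher and 1 lower, where the shares of all tested genes were 15.4% and 11%. Peroxins had 5 higher and 0 lower in KO livers, and 5 higher and 1 lower in WT livers. Matrix enzymes had 9 higher and 1 lower in KO livers, and 5 higher and 0 lower in WT livers. Leaving out WT DEHP replicate 7 lowered the WT count to 7 members, all higher, and leaving out any other library kept it within 1.5 times. Without WT DEHP replicate 5 or WT CMC replicate 7, the libraries with low endothelial sums, it was 14 and 10 members. Of the members called higher, 11 were so in both genotypes, which is 68.8% of the KO genes and 91.7% of the WT genes. Pearson's r between the KO and WT log2 fold changes was 0.96 and Spearman's rho 0.92, across 32 genes that are not independent replicates. Neither the overlap nor the correlation was computed over all tested genes, so these values describe the members only.

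Some sums of marker transcripts moved with DEHP at this time. The 9 hepatocyte markers summed to between 48350 and 49407 FPKM in KO DEHP livers and between 72270 and 73296 FPKM in KO CMC livers, and to between 51951 and 53808 FPKM in WT DEHP livers and between 65876 and 79408 FPKM in WT CMC livers. The 7 stellate cell markers summed to between 76.9 and 87.6 FPKM in KO DEHP livers and between 116 and 119 FPKM in KO CMC livers, while the WT groups overlapped (40.7 to 88.8 FPKM under DEHP and 70.2 to 165 FPKM under CMC). The 8 endothelial markers gave 112 to 138 FPKM in KO DEHP livers and 146 to 148 FPKM in KO CMC livers, and 37.1 to 156 FPKM in WT DEHP livers and 51.1 to 156 FPKM in WT CMC livers. Kupffer cell markers overlapped, at 272 to 471 FPKM in KO DEHP and 379 to 448 FPKM in KO CMC livers, and at 185 to 435 FPKM in WT DEHP and 205 to 502 FPKM in WT CMC livers. The adipocyte list summed to 3.70 to 6.04 FPKM in KO DEHP and 0.89 to 1.11 FPKM in KO CMC livers, and to 1.95 to 4.91 FPKM in WT DEHP and 0.85 to 1.02 FPKM in WT CMC livers, with Adipoq, Plin1 and Lep listed at 0 in 18, 17 and 23 of the 28 libraries. These sums follow their most abundant genes. Over all 28 libraries the medians were 23344 FPKM for Alb, 12889 FPKM for Apoa2 and 6954 FPKM for Apoa1 of the hepatocyte list, and 63.1 FPKM for Dcn of the stellate list. Directions of single marker genes were not counted, so a sum does not speak for its whole list. The part of the marker lists in the results was not tested, and in whole liver fewer cells of a type and less RNA per cell cannot be told apart.

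**Figure D2:**
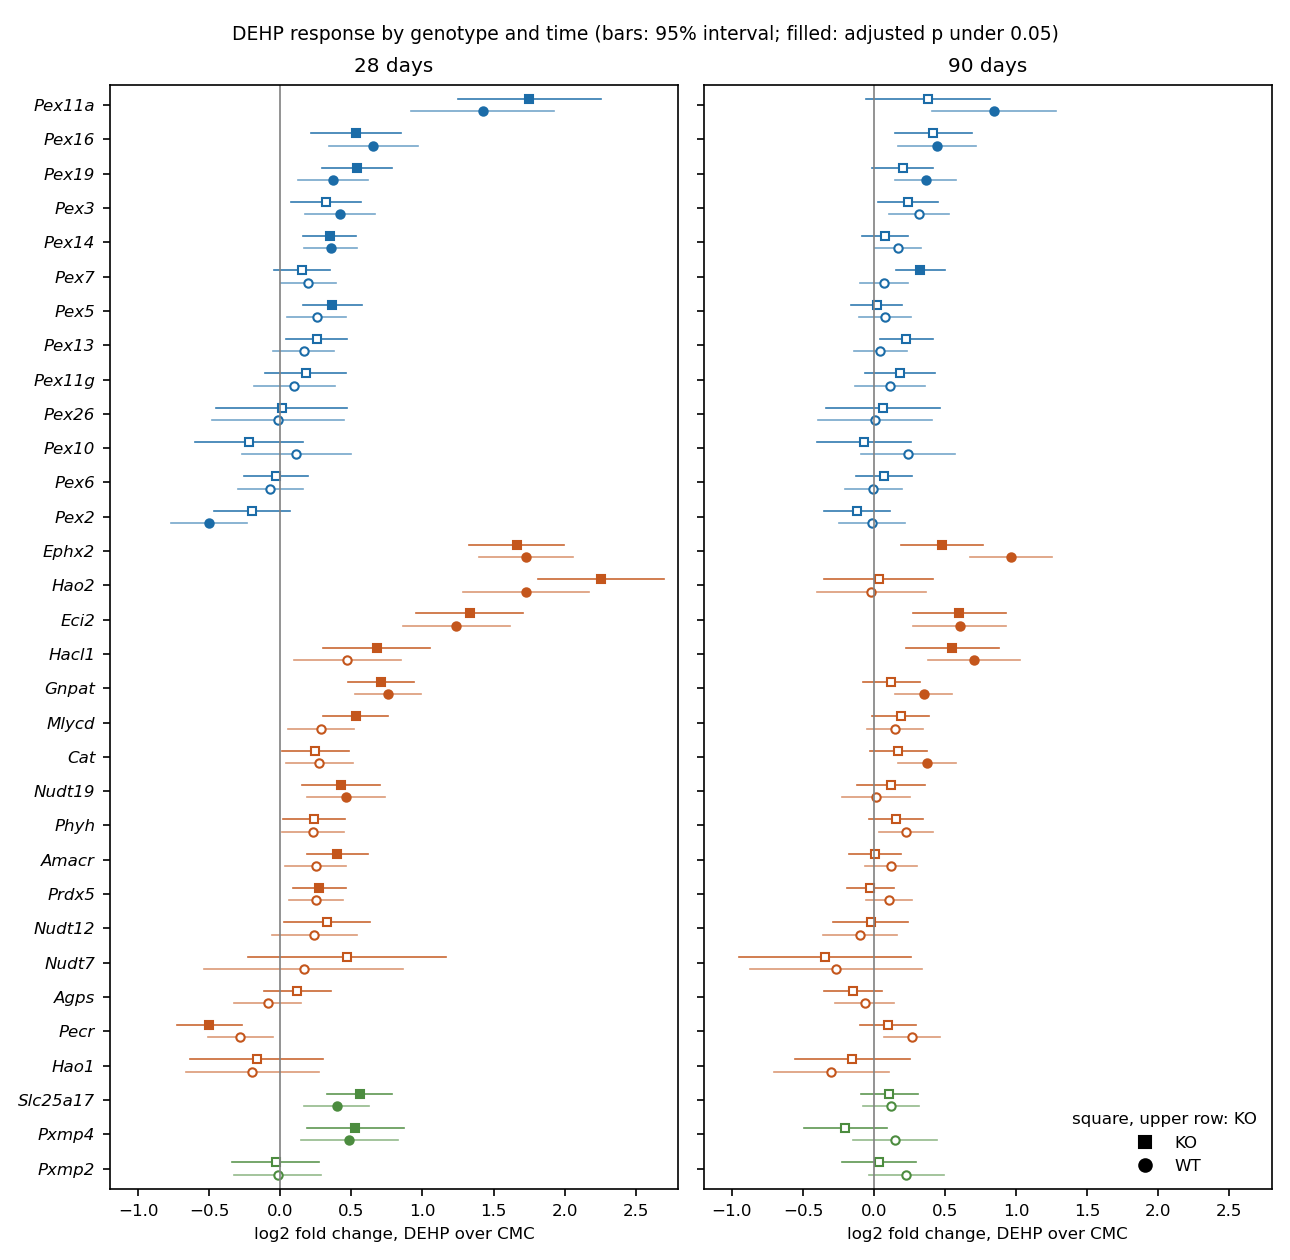
The x axis gives the log2 fold change of DEHP over CMC on the log2(FPKM + 1) scale at 28 days (left) and 90 days (right), for KO (squares) and WT (circles) in each of the 32 genes. Bars are 95% intervals and filled symbols have an adjusted p under 0.05. At 28 days Hao2, Pex11a, Ephx2 and Eci2 lie above 1 in both genotypes, and at 90 days no value exceeds 0.97.

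Among the peroxins, the members that shape and divide the organelle differed from each other. Pex11a, which elongates peroxisomes before they divide, had 79.5, 121 and 88.8 FPKM in KO DEHP livers and 34.4, 28.6 and 21.1 FPKM in KO CMC livers, and 31.5, 73.6 and 84.2 FPKM in WT DEHP livers and 20.3, 22.4 and 20.4 FPKM in WT CMC livers at 28 days. Every DEHP library exceeded every CMC library of its genotype, although WT DEHP replicate 5, at 31.5 FPKM, lay far under the other two of its group, at 73.6 and 84.2 FPKM. The log2 fold change was 1.75 (1.25 to 2.26, adjusted p = 7.33e-06) in KO livers and 1.42 (0.92 to 1.93, adjusted p = 0.00014) in WT livers. Without WT DEHP replicate 5 the WT value was 1.86. At 90 days Pex11a had 33.1, 29.6, 34.4 and 32.8 FPKM in KO DEHP livers and 23.4, 20.8, 23.7 and 32.3 FPKM in KO CMC livers, and 45.1, 34.9, 43.7 and 48.4 FPKM in WT DEHP livers and 22.8, 23.6, 19.5 and 28.2 FPKM in WT CMC livers. The WT groups again did not overlap, whereas KO CMC replicate 4 at 32.3 FPKM lay within the KO DEHP range. Pex11a was thus called in WT livers at 90 days, at 0.85 (0.41 to 1.28, adjusted p = 0.0146), and not in KO livers, at 0.38 (-0.06 to 0.81, adjusted p = 0.367), while the difference between the genotypes in this response, -0.47 (-1.08 to 0.15, adjusted p = 0.956), did not pass. With the pancreas libraries left out, the WT value was 0.88 and no longer passed (adjusted p = 0.0697). Pex11g, a relative of Pex11a, stood at 22.04 to 38.03 FPKM over all libraries and was called in no stratum, with log2 fold changes from 0.10 to 0.18.

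The 3 peroxins that insert membrane proteins were higher together over the mean of the strata. Pex16, which receives membrane proteins for the organelle, had 71.3, 64.4 and 51.8 FPKM in KO DEHP livers and 42.3, 41.3 and 44.1 FPKM in KO CMC livers, and 61.3, 65.1 and 55.01 FPKM in WT DEHP livers and 32.3, 42.2 and 40.2 FPKM in WT CMC livers at 28 days. All 6 DEHP libraries lay above all 6 CMC libraries, with log2 fold changes of 0.53 (0.22 to 0.85, adjusted p = 0.0133) in KO livers and 0.65 (0.34 to 0.97, adjusted p = 0.00332) in WT livers. In the 90-day libraries it had 39.2, 44.6, 48.6 and 48.2 FPKM in KO DEHP livers and 30.2, 32.7, 32.9 and 38.5 FPKM in KO CMC livers, and 38.9, 34.5, 39.3 and 60.5 FPKM in WT DEHP livers and 29.03, 28.3, 32.3 and 33.99 FPKM in WT CMC livers. No DEHP library fell below a CMC library of its genotype there, the nearest pairs being WT DEHP replicate 2 at 34.5 FPKM and WT CMC replicate 4 at 33.99 FPKM, and KO DEHP replicate 1 at 39.2 FPKM and KO CMC replicate 4 at 38.5 FPKM. The differences at 90 days were 0.42 (0.14 to 0.69, adjusted p = 0.065) in KO livers and 0.44 (0.17 to 0.72, adjusted p = 0.0409) in WT livers, and 0.32 (adjusted p = 0.16) in WT livers without the pancreas libraries.

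Pex19, the cytosolic carrier of newly made membrane proteins, followed the same order. At 28 days it had 42.8, 46.6 and 43.8 FPKM in KO DEHP livers and 33.4, 29.8 and 27.8 FPKM in KO CMC livers, and 32.02, 41.6 and 36.8 FPKM in WT DEHP livers and 27.9, 30.8 and 25.8 FPKM in WT CMC livers, and the agents did not overlap in either genotype. The log2 fold changes were 0.54 (0.29 to 0.79, adjusted p = 0.00175) in KO livers and 0.37 (0.12 to 0.62, adjusted p = 0.0351) in WT livers. The values at 90 days were 23.8, 28.3, 31.9 and 30.1 FPKM in KO DEHP livers and 22.7, 23.1, 25.8 and 26.8 FPKM in KO CMC livers, and 31.1, 27.01, 30.4 and 37.7 FPKM in WT DEHP livers and 25.1, 22.6, 22.2 and 26.9 FPKM in WT CMC livers. WT DEHP libraries stayed above WT CMC libraries, by 27.0 against at most 26.9 FPKM at the nearest, and the KO groups overlapped. The values were 0.20 (-0.01 to 0.42, adjusted p = 0.318) in KO livers and 0.36 (0.15 to 0.58, adjusted p = 0.0332) in WT livers, the WT one being 0.33 (adjusted p = 0.0817) without the pancreas libraries. Pex3, the membrane anchor for Pex19, lay lower, at 6.82 to 15.3 FPKM, and had log2 fold changes of 0.32 and 0.42 at 28 days and 0.24 and 0.32 at 90 days in KO and WT livers, of which the WT value at 28 days passed (adjusted p = 0.0152). Over the mean of the strata Pex3, Pex16 and Pex19 rose by 0.32, 0.51 and 0.37 on the log2 scale (adjusted p = 5.06e-05, 2.97e-06 and 1.06e-05).

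**Figure D3:**
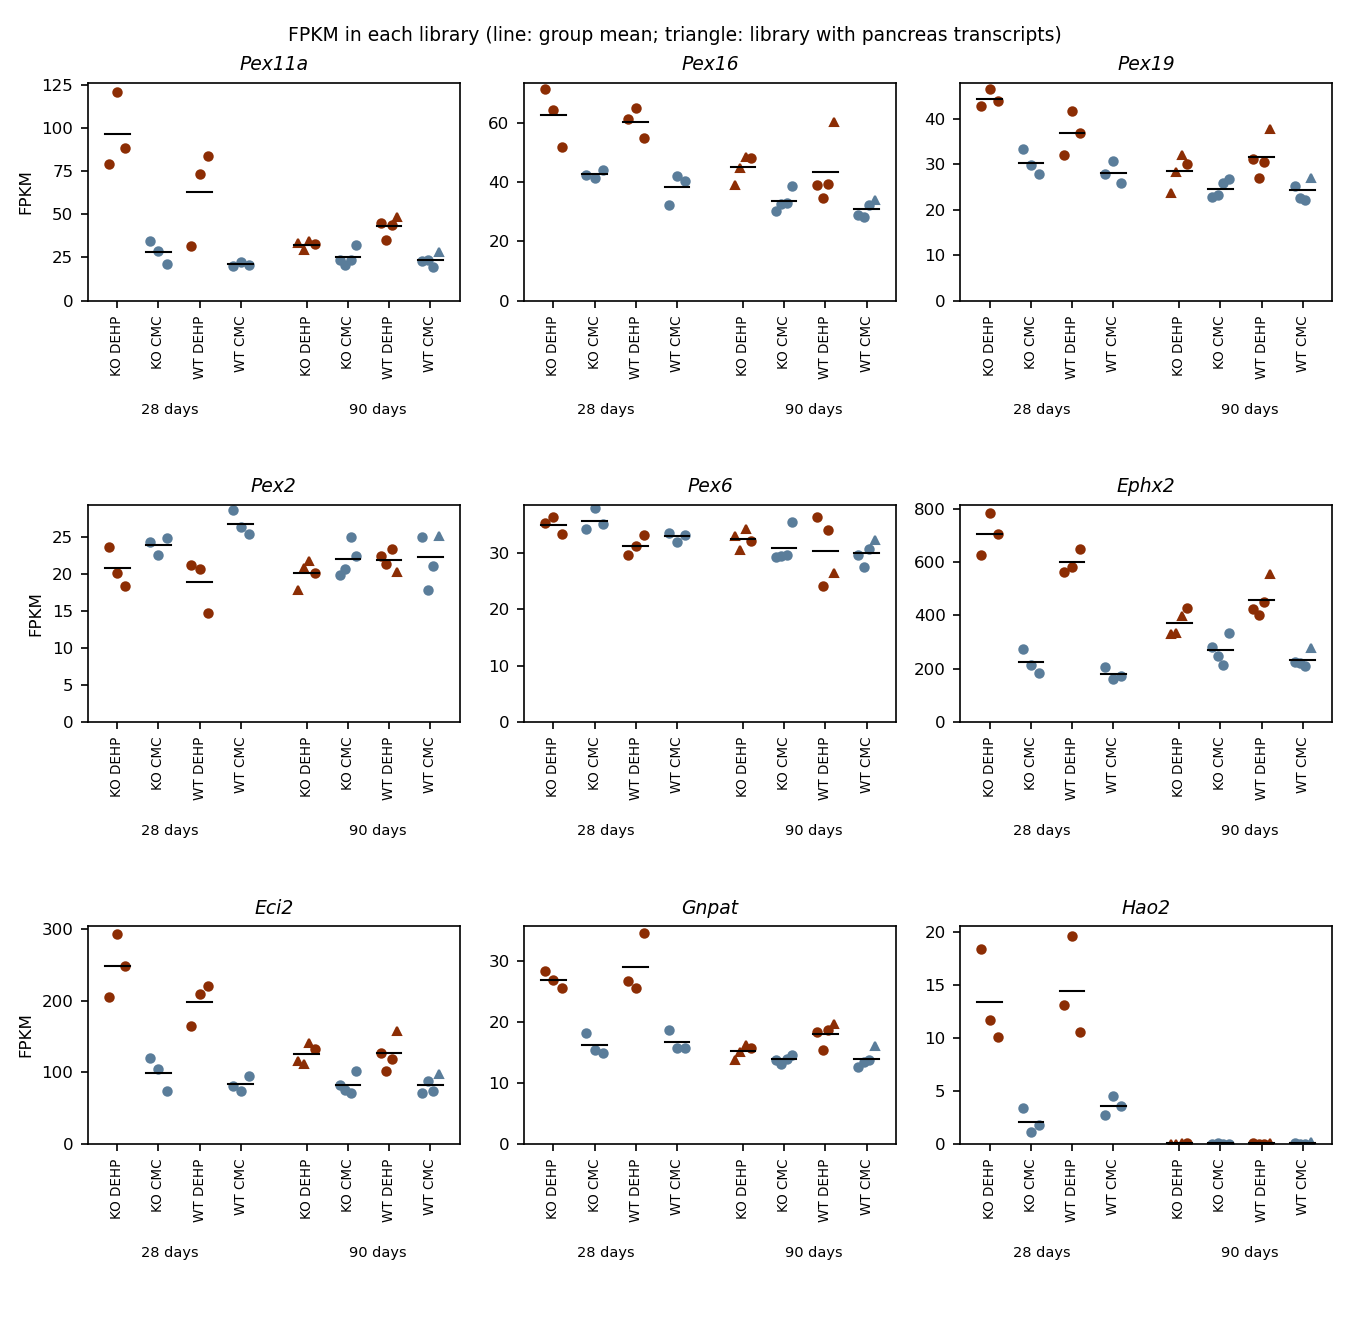
The y axis gives FPKM and starts at 0, the x axis the 4 groups at 28 and 90 days, with 1 point per library, a line at the group mean and triangles for the 5 libraries with pancreas transcripts. For Pex11a, Pex16, Pex19, Ephx2, Eci2, Gnpat and Hao2 the DEHP libraries of 28 days stand above the CMC libraries of the same genotype, whereas Pex6 stays between 24.1 and 37.9 FPKM in all groups.

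The peroxins that import matrix proteins gave smaller values. The receptors Pex5 and Pex7, which recognise targeting signals at opposite ends of their cargo, rose over the mean of the strata by 0.18 and 0.19 on the log2 scale (adjusted p = 0.00417 and 0.00178). The docking proteins Pex13 and Pex14 rose by 0.17 and 0.24 (adjusted p = 0.00695 and 7.51e-05). Within single strata Pex14 was called at 28 days in KO livers (32.2 to 38.2 FPKM under DEHP and 25.9 to 30.7 FPKM under CMC) and in WT livers (29.5 to 35.8 FPKM under DEHP and 24.9 to 26.9 FPKM under CMC). Pex5 was called in KO livers at 28 days, where 49.8 to 51.6 FPKM under DEHP stood against 38.4 to 39.95 FPKM under CMC. Pex7 was called in KO livers at 90 days, with 39.9, 38.95, 44.5 and 40.3 FPKM under DEHP and 30.7, 32.5, 31.4 and 35.1 FPKM under CMC, a log2 fold change of 0.33 (0.16 to 0.50, adjusted p = 0.02). Leaving out the pancreas libraries gave a difference of 0.31, from 1 DEHP library, and did not pass (adjusted p = 0.251). Pex13, at 8.22 to 15.1 FPKM, was called in no single stratum.

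Of the peroxins that recycle the import receptors, none was called higher by limma in any stratum. Pex2, a subunit of the ubiquitin ligase that tags the receptors, was the one peroxin that fell. At 28 days it had 23.7, 20.2 and 18.4 FPKM in KO DEHP livers and 24.3, 22.7 and 24.9 FPKM in KO CMC livers, and 21.3, 20.7 and 14.7 FPKM in WT DEHP livers and 28.8, 26.4 and 25.4 FPKM in WT CMC livers. The WT groups did not overlap, while in KO livers DEHP replicate 5 at 23.7 FPKM lay within the CMC range. The log2 fold change was -0.20 (-0.47 to 0.07, adjusted p = 0.303) in KO livers and -0.50 (-0.77 to -0.23, adjusted p = 0.00798) in WT livers. At 90 days Pex2 had 17.9, 20.9, 21.8 and 20.2 FPKM in KO DEHP livers and 19.9, 20.8, 25.04 and 22.5 FPKM in KO CMC livers, and 22.5, 21.4, 23.4 and 20.3 FPKM in WT DEHP livers and 25.02, 17.9, 21.2 and 25.2 FPKM in WT CMC livers, and both genotypes overlapped. Over the mean of the strata it fell by 0.21 on the log2 scale (-0.33 to -0.08, adjusted p = 0.00852), and the value was -0.18 (adjusted p = 0.0677) without the pancreas libraries. The deposited row of Pex2 merges 8 transcripts.

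Pex10, a partner of Pex2 in the ligase, was expressed at a few FPKM. At 28 days it had 3.68, 2.99 and 2.73 FPKM in KO DEHP livers and 4.75, 3.59 and 3.18 FPKM in KO CMC livers, and 3.65, 2.83 and 2.58 FPKM in WT DEHP livers and 2.5, 3.2 and 2.43 FPKM in WT CMC livers. By 90 days these were 2.38, 1.59, 1.83 and 2.22 FPKM in KO DEHP livers and 1.85, 1.59, 3.43 and 1.98 FPKM in KO CMC livers, and 2.37, 2.31, 2.55 and 3.59 FPKM in WT DEHP livers and 2.05, 1.47, 2.22 and 2.86 FPKM in WT CMC livers. The agents overlapped in every stratum, and the mean difference was 0.01 (-0.16 to 0.19, adjusted p = 0.912). Pex6, an ATPase that pulls receptors out of the membrane, had 35.2, 36.3 and 33.2 FPKM in KO DEHP livers and 34.2, 37.9 and 35.1 FPKM in KO CMC livers, and 29.6, 31.1 and 33.2 FPKM in WT DEHP livers and 33.5, 31.9 and 33.2 FPKM in WT CMC livers at 28 days. The 90-day libraries gave 32.99, 30.4, 34.1 and 32.01 FPKM in KO DEHP livers and 29.3, 29.4, 29.6 and 35.4 FPKM in KO CMC livers, and 36.3, 24.1, 34.1 and 26.5 FPKM in WT DEHP livers and 29.6, 27.5, 30.6 and 32.3 FPKM in WT CMC livers. Pex6 also overlapped in every stratum, with a mean difference of -0.01 (-0.12 to 0.10, adjusted p = 0.901). Pex26, its membrane anchor, ran from 3.17 to 9.49 FPKM with a mean difference of 0.02 (-0.20 to 0.23, adjusted p = 0.922).

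Among the matrix enzymes the highest values belonged to genes of different reactions. Ephx2, the soluble epoxide hydrolase, which works in the cytosol as well as in peroxisomes, had 628, 784 and 704 FPKM in KO DEHP livers and 274, 214 and 184 FPKM in KO CMC livers, and 563, 581 and 649.87 FPKM in WT DEHP livers and 205, 163 and 172 FPKM in WT CMC livers at 28 days. The lowest DEHP library held 563 FPKM and the highest CMC library 274 FPKM. The log2 fold changes were 1.66 (1.33 to 1.997, adjusted p = 4.73e-08) in KO livers and 1.73 (1.40 to 2.06, adjusted p = 3.46e-08) in WT livers. At 90 days it had 331, 333, 397 and 426 FPKM in KO DEHP livers and 279, 247, 214 and 335 FPKM in KO CMC livers, and 425, 399.67, 449 and 554 FPKM in WT DEHP livers and 223, 220.07, 211 and 278 FPKM in WT CMC livers. WT groups did not overlap, and KO groups did, by KO CMC replicate 4 at 335 FPKM. The differences at 90 days were 0.48 (0.19 to 0.77, adjusted p = 0.044) in KO livers and 0.97 (0.68 to 1.25, adjusted p = 9.61e-05) in WT livers. Without the pancreas libraries they were 0.68 (adjusted p = 0.0948) in KO livers, with 1 DEHP library, and 0.96 (adjusted p = 0.000823) in WT livers.

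Eci2, an isomerase that readies unsaturated fatty acids for oxidation and is also found in mitochondria, was called in all 4 strata, as was Ephx2. At 28 days Eci2 had 205, 293 and 249 FPKM in KO DEHP livers and 119.80, 104 and 73.7 FPKM in KO CMC livers, and 164, 209.81 and 220.09 FPKM in WT DEHP livers and 80.02, 74.2 and 94.9 FPKM in WT CMC livers, without overlap. The log2 fold changes were 1.33 (0.96 to 1.71, adjusted p = 5.96e-06) in KO livers and 1.24 (0.86 to 1.62, adjusted p = 2.2e-05) in WT livers. In the 90-day libraries it had 115, 111, 141 and 132 FPKM in KO DEHP livers and 81.6, 75.02, 71.2 and 101 FPKM in KO CMC livers, and 127, 102, 119 and 157 FPKM in WT DEHP livers and 71.2, 87.8, 73.1 and 97.9 FPKM in WT CMC livers. The agents did not overlap at 90 days either, and the differences were 0.60 (0.27 to 0.93, adjusted p = 0.0253) in KO livers and 0.60 (0.28 to 0.93, adjusted p = 0.0195) in WT livers. Neither passed without the pancreas libraries, at 0.68 (adjusted p = 0.183) and 0.58 (adjusted p = 0.0729) in KO and WT livers.

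The oxidases of 2-hydroxy acids, Hao1 and Hao2, gave different values. Hao2, which acts on long-chain 2-hydroxy acids, had 18.4, 11.7 and 10.1 FPKM in KO DEHP livers and 3.34, 1.08 and 1.77 FPKM in KO CMC livers, and 13.2, 19.6 and 10.54 FPKM in WT DEHP livers and 2.67, 4.48 and 3.59 FPKM in WT CMC livers at 28 days. All 6 DEHP libraries held at least 10.1 FPKM and all 6 CMC libraries at most 4.48 FPKM. The log2 fold changes were 2.26 (1.81 to 2.70, adjusted p = 3.47e-08) in KO livers and 1.73 (1.29 to 2.17, adjusted p = 1.98e-06) in WT livers, which the pseudocount of 1 makes smaller than the ratio of the FPKM values. At 90 days Hao2 was listed at 0 in 9 of 16 libraries and reached at most 0.13 FPKM, so no fold is given there, and its mean over the strata rests on 28 days. Hao1, the glycolate oxidase, had 67.3, 66.7 and 66.1 FPKM in KO DEHP livers and 82.4, 88.97 and 57.4 FPKM in KO CMC livers, and 50.2, 74.9 and 58.6 FPKM in WT DEHP livers and 61.9, 79.5 and 67.9 FPKM in WT CMC livers at 28 days. The values at 90 days were 122, 151, 109.58 and 77.04 FPKM in KO DEHP livers and 128, 109, 123 and 139 FPKM in KO CMC livers, and 131, 122, 135 and 63.7 FPKM in WT DEHP livers and 131, 129, 137 and 137 FPKM in WT CMC livers, the lowest values being those of KO DEHP replicate 4 and WT DEHP replicate 4. Hao1 overlapped in every stratum and its mean difference was -0.20 (-0.42 to 0.01, adjusted p = 0.138). Without the pancreas libraries that difference was -0.27, with KO DEHP replicate 4 as the only KO DEHP library of 90 days. The KO value at 90 days then moved from -0.15 to -0.68, and the WT value from -0.30 to -0.04.

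Enzymes of peroxide handling stood among the most abundant members, with small differences between the agents. Catalase (Cat), which breaks down hydrogen peroxide, ran from 770 to 1178 FPKM over the 28 libraries. It was called in WT livers at 90 days, with 1142, 1041, 1178 and 1092 FPKM under DEHP and 773, 771, 852 and 1068 FPKM under CMC, a log2 fold change of 0.37 (0.17 to 0.58, adjusted p = 0.0198), and WT CMC replicate 4, a pancreas library, was the one that overlapped. Without the pancreas libraries the value was 0.49 (adjusted p = 0.00928). Over the mean of the strata Cat rose by 0.27 on the log2 scale (adjusted p = 0.000278), and Prdx5, a peroxiredoxin, by 0.15 (adjusted p = 0.00736), a call that upper quartile scaling and quantile normalization ended.

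In alpha-oxidation, which shortens branched fatty acids by a single carbon, the steps differed in size. Hacl1, the lyase of the pathway, had 341, 292 and 235 FPKM in KO DEHP livers and 171, 204 and 162 FPKM in KO CMC livers, and 239, 281 and 284 FPKM in WT DEHP livers and 186, 193 and 199.67 FPKM in WT CMC livers at 28 days, without overlap. At 90 days Hacl1 had 105, 88.5, 123 and 129 FPKM in KO DEHP livers and 83.7, 53.5, 73.98 and 95.2 FPKM in KO CMC livers, and 132, 123, 130.21 and 180.29 FPKM in WT DEHP livers and 78.1, 98.7, 73.1 and 94.8 FPKM in WT CMC livers. WT groups were separate there and KO groups overlapped by KO CMC replicate 4 at 95.2 FPKM. The differences were 0.68 (adjusted p = 0.00832) and 0.47 (adjusted p = 0.0831) at 28 days, and 0.55 (adjusted p = 0.0387) and 0.70 (adjusted p = 0.00695) at 90 days, in KO and WT livers. Without the pancreas libraries the values of 90 days were 0.78 (adjusted p = 0.0929) in KO and 0.63 (adjusted p = 0.0385) in WT livers. Phyh, the hydroxylase before it, ran from 588 to 1162 FPKM, was called in no single stratum, and rose by 0.21 over their mean (adjusted p = 0.00141). Quantile normalization ended that call, at 0.06 (adjusted p = 0.473, by limma). Amacr, a racemase of branched acyl-CoA, was called in KO livers at 28 days, with 63.3, 59.5 and 61.4 FPKM under DEHP and 47.1, 43.6 and 48.1 FPKM under CMC, a log2 fold change of 0.40 (0.19 to 0.61, adjusted p = 0.00604).

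Of the 2 members in ether lipid synthesis, 1 was called. Gnpat, the acyltransferase of its opening step, had 28.3, 26.8 and 25.4 FPKM in KO DEHP livers and 18.1, 15.4 and 14.8 FPKM in KO CMC livers, and 26.7, 25.5 and 34.6 FPKM in WT DEHP livers and 18.6, 15.7 and 15.6 FPKM in WT CMC livers at 28 days. The agents were apart in both genotypes, at 0.71 (0.48 to 0.94, adjusted p = 3.85e-05) in KO livers and 0.76 (0.52 to 0.99, adjusted p = 2.3e-05) in WT livers. By 90 days these were 13.8, 14.98, 16.1 and 15.7 FPKM in KO DEHP livers and 13.8, 13.1, 13.9 and 14.6 FPKM in KO CMC livers, and 18.3, 15.3, 18.5 and 19.7 FPKM in WT DEHP livers and 12.5, 13.4, 13.7 and 15.9 FPKM in WT CMC livers. The WT difference of 0.35 (0.15 to 0.55, adjusted p = 0.0277) passed, with WT CMC replicate 4, a pancreas library, inside the DEHP range, and was 0.37 (adjusted p = 0.0662) without the pancreas libraries. Agps, the enzyme of the next step, was low throughout. At 28 days it had 2.54, 2.37 and 2.11 FPKM in KO DEHP livers and 2.32, 1.88 and 2.02 FPKM in KO CMC livers, and 1.43, 2.04 and 1.8 FPKM in WT DEHP livers and 1.91, 2.42 and 1.5 FPKM in WT CMC livers. The 90-day libraries gave 1.31, 1.84, 1.65 and 1.64 FPKM in KO DEHP livers and 1.92, 1.71, 2.04 and 1.87 FPKM in KO CMC livers, and 1.81, 1.42, 1.72 and 1.39 FPKM in WT DEHP livers and 1.64, 1.69, 1.56 and 1.93 FPKM in WT CMC livers. Agps overlapped in every stratum, with a mean difference of -0.05 (-0.16 to 0.07, adjusted p = 0.54).

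Pecr, a reductase of unsaturated acyl-CoA, was the one matrix enzyme called lower in a stratum. At 28 days it had 114, 108 and 113 FPKM in KO DEHP livers and 143, 152 and 183 FPKM in KO CMC livers, and 156, 113 and 109 FPKM in WT DEHP livers and 170.41, 146 and 139.98 FPKM in WT CMC livers. The KO groups did not overlap, while WT DEHP replicate 5 at 156 FPKM lay inside the CMC range. The log2 fold change was -0.50 (-0.73 to -0.27, adjusted p = 0.0017) in KO livers and -0.28 (-0.51 to -0.05, adjusted p = 0.089) in WT livers. Without WT DEHP replicate 5 the WT value was -0.44 and passed (adjusted p = 0.00333). At 90 days Pecr had 154, 141, 137 and 155 FPKM in KO DEHP livers and 133, 135, 131 and 149 FPKM in KO CMC livers, and 138, 141, 144 and 135 FPKM in WT DEHP livers and 118, 117, 105 and 125 FPKM in WT CMC livers. WT DEHP libraries were there above all WT CMC libraries, at 0.27 (0.07 to 0.47, adjusted p = 0.102), and the KO value was 0.10 (-0.10 to 0.30, adjusted p = 0.676), so neither passed.

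The remaining enzymes hydrolyse cofactors or malonyl-CoA. Nudt19, which cleaves coenzyme A, was called at 28 days in both genotypes, at 0.42 (0.15 to 0.70, adjusted p = 0.0243) in KO livers and 0.46 (0.19 to 0.74, adjusted p = 0.0164) in WT livers. Nudt7, another coenzyme A hydrolase, varied widely within groups, from 98.1 to 216 FPKM in KO CMC livers at 28 days for example, and its mean difference of 0.00 (-0.32 to 0.33, adjusted p = 0.988) had an interval wider than that of most members. Nudt12, a hydrolase of NADH, was called in no stratum, at 12.2 to 25.2 FPKM. Mlycd, the malonyl-CoA decarboxylase, also present in mitochondria and cytosol, was called in KO livers at 28 days, with 67.1, 70.2 and 64.8 FPKM under DEHP and 47.7, 48.03 and 43.5 FPKM under CMC, a log2 fold change of 0.53 (0.30 to 0.76, adjusted p = 0.00105). The WT value at 28 days was 0.28 (adjusted p = 0.0881).

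Of the membrane proteins, 2 of 3 rose at 28 days. Slc25a17, a carrier of coenzyme A and other cofactors, had 34.7, 38.4 and 34.2 FPKM in KO DEHP livers and 24.8, 24.1 and 22.98 FPKM in KO CMC livers, and 27.9, 37.9 and 35.03 FPKM in WT DEHP livers and 28.8, 25.1 and 21.7 FPKM in WT CMC livers at 28 days. The KO groups were apart, and in WT livers DEHP replicate 5 at 27.9 FPKM lay inside the CMC range. The log2 fold changes were 0.56 (0.33 to 0.79, adjusted p = 0.000573) in KO livers and 0.40 (0.17 to 0.63, adjusted p = 0.0143) in WT livers. The WT value was 0.52 without WT DEHP replicate 5 and 0.30, no longer passing (adjusted p = 0.0876), without WT CMC replicate 7. At 90 days it had 25.5, 31.1, 28.3 and 27.8 FPKM in KO DEHP livers and 26.4, 27.1, 24.1 and 26.6 FPKM in KO CMC livers, and 35.3, 28.8, 33.6 and 30.4 FPKM in WT DEHP livers and 29.3, 32.8, 29.6 and 25.9 FPKM in WT CMC livers, with overlap in both genotypes and log2 differences of 0.11 in KO and 0.12 in WT livers.

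Pxmp4, a membrane protein of the organelle, had 95.2, 88.8 and 82.95 FPKM in KO DEHP livers and 68.05, 65.7 and 51.6 FPKM in KO CMC livers, and 81.3, 76.8 and 84.3 FPKM in WT DEHP livers and 54.2, 59.1 and 58.95 FPKM in WT CMC livers at 28 days, without overlap. The log2 fold changes were 0.53 (0.19 to 0.87, adjusted p = 0.0236) in KO livers and 0.49 (0.14 to 0.83, adjusted p = 0.0447) in WT livers, and leaving out any 1 library of the WT groups ended the WT call. At 90 days Pxmp4 had 44.5, 40.8, 42.04 and 44.1 FPKM in KO DEHP livers and 49.01, 46.1, 51.6 and 51.1 FPKM in KO CMC livers, and 71.8, 42.2, 48.4 and 56.3 FPKM in WT DEHP livers and 35.9, 67.3, 52.1 and 43.5 FPKM in WT CMC livers. All KO DEHP libraries of 90 days lay under all KO CMC libraries, at -0.20 (-0.50 to 0.09, adjusted p = 0.52), which did not pass. Its mean over the strata rose by 0.24 (adjusted p = 0.0173), and the value was 0.23 (adjusted p = 0.0941) without the pancreas libraries. The call of the Pxmp4 mean was also ended by upper quartile scaling, at 0.19 (adjusted p = 0.0501), and by quantile normalization, at 0.14 (adjusted p = 0.142), both by limma. Pxmp2, a channel for small solutes, had 91.1, 95.9 and 95.6 FPKM in KO DEHP livers and 92.3, 92.5 and 105 FPKM in KO CMC livers, and 122, 91.4 and 77.3 FPKM in WT DEHP livers and 102, 97.96 and 90.1 FPKM in WT CMC livers at 28 days. In the 90-day libraries it had 71.9, 93.6, 76.3 and 116 FPKM in KO DEHP livers and 73.7, 91.6, 91.3 and 87.7 FPKM in KO CMC livers, and 87.2, 83.8, 92.2 and 95.3 FPKM in WT DEHP livers and 83.7, 66.2, 75.3 and 81.6 FPKM in WT CMC livers. Pxmp2 overlapped in 3 of 4 strata, WT at 90 days being the exception at 0.23 (-0.04 to 0.49, adjusted p = 0.341), and its mean difference was 0.05 (-0.09 to 0.19, adjusted p = 0.595). Without the pancreas libraries its KO value at 90 days moved from 0.03 to 0.43, with 1 DEHP library.

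Fewer members passed at 90 days. In KO livers 4 of 32 rose (Pex7, Hacl1, Ephx2 and Eci2) and 0 fell, where 4.47% of all tested genes were higher and 1.18% lower. In WT livers 8 rose (Pex11a, Pex16, Pex19, Ephx2, Hacl1, Eci2, Gnpat and Cat) and 0 fell, where 4.96% of all tested genes were higher and 1.84% lower. The agents were apart in 6 members in KO livers, 5 higher and 1 lower, where 8.89% and 3.46% of all tested genes were, and in 8 members in WT livers, 8 higher and 0 lower, where 7.07% and 4.58% were. Without the 5 pancreas libraries 0 members were called in KO livers and 3 in WT livers (Ephx2, Hacl1 and Cat), where 1.97% of all tested genes were higher and 0.455% lower in KO livers, and 3.33% higher and 0.99% lower in WT livers. The KO comparison then has 1 DEHP library, whose spread limma takes from the other groups. With all libraries 7 members in KO livers and 12 in WT livers had an unadjusted p under 0.05, which is 21.9% and 37.5% of them, against 17.8% and 19.9% of all tested genes. The median log2 fold change of the members was 0.10 in KO livers, against 0.03 over all tested genes, and 0.13 in WT livers, against -0.01 over all tested genes. The hepatocyte marker sums overlapped between the agents at this time, at 48244 to 56234 FPKM in KO DEHP and 44152 to 57421 FPKM in KO CMC livers, and at 45535 to 52402 FPKM in WT DEHP and 49467 to 61621 FPKM in WT CMC livers. Other marker lists were apart: in WT livers the Kupffer sums were 194 to 225 FPKM under DEHP and 232 to 339.51 FPKM under CMC, and the stellate sums 67.3 to 79.4 FPKM under DEHP and 87.8 to 108 FPKM under CMC. In KO livers the adipocyte sums were 3.23 to 11.57 FPKM under DEHP and 1.39 to 2.63 FPKM under CMC. The KO DEHP libraries with pancreas transcripts (replicates 1, 2 and 3) held 11.57, 7.07 and 10.24 FPKM, and replicate 4 held 3.23 FPKM. In WT livers the pancreas libraries CMC replicate 4 and DEHP replicate 4 held 8.81 and 4.79 FPKM. DEHP replicate 3, without pancreas transcripts, held 7.74 FPKM there. The part of the marker lists in the results was not tested. Both counts depended on single libraries. Leaving out 1 library at a time gave 0 to 5 members in KO livers, with 0 without KO CMC replicate 1, KO CMC replicate 3 or KO DEHP replicate 3 and 1 without KO CMC replicate 2 or KO DEHP replicate 4. In WT livers it gave 2 to 9, with 2 without WT DEHP replicate 4 or WT CMC replicate 3, 3 without WT CMC replicate 1, and 4 without WT DEHP replicate 3 or WT CMC replicate 2.

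Whether the DEHP response differed between the times was tested in both genotypes together (the interaction of agent and time). In the fit 7 of 32 members were called lower at 90 than at 28 days and 1 higher, where 4.82% of all tested genes were called lower and 4.99% higher. For Hao2 (-1.99) the sign was fixed by its 90-day values, which lie near 0 under both agents, so it gives no comparison of responses. The other 6 were Pex11a (-0.98, adjusted p = 0.00588), Ephx2 (-0.97, 9.56e-05), Eci2 (-0.68, 0.00975), Pxmp4 (-0.53, 0.0263), Gnpat (-0.50, 0.00236) and Slc25a17 (-0.36, 0.0251), each given as the log2 difference with its adjusted p. Pecr was the one with the opposite sign, at 0.57 (0.36 to 0.79, adjusted p = 0.000549). By class, with Hao2 left out, these were 1 of 13 peroxins, 3 lower and 1 higher of the matrix enzymes and 2 of 3 membrane proteins. Ephx2, Gnpat and Pecr passed also without the pancreas libraries, while Pex11a (-0.95, adjusted p = 0.0591), Eci2 (-0.65, adjusted p = 0.0502), Pxmp4 (-0.55, adjusted p = 0.119) and Slc25a17 (-0.39, adjusted p = 0.0698) did not. Hacl1 and Cat had interaction values of 0.05 (-0.30 to 0.40) and 0.01 (-0.21 to 0.23). The share of members whose fitted value was larger at 28 than at 90 days was 23 of 32 in KO and 22 of 32 in WT livers, with Hao2 among them. It was not counted over all tested genes, so it describes the members only. Since the times also differ in sex-chromosome transcripts, time and sex cannot be told apart in these values.

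Under the vehicle, too, some members stood at different levels at the 2 times. Nudt7 had 460 to 567 FPKM at 90 days against 98.1 to 216 FPKM at 28 days in KO CMC livers, and 414 to 550 FPKM against 109 to 164 FPKM in WT CMC livers. Hao1 was also higher at 90 days, at 109 to 139 FPKM against 57.4 to 89.0 FPKM in KO CMC livers and 129 to 137 FPKM against 61.9 to 79.5 FPKM in WT CMC livers. Hacl1 ran the other way, with 53.6 to 95.2 FPKM at 90 days against 162 to 204 FPKM at 28 days in KO CMC livers, and 73.1 to 98.7 FPKM against 186 to 199.67 FPKM in WT CMC livers. None of these ranges overlapped. Phyh also stood apart, at 896 to 1091 FPKM at 90 days against 588 to 714 FPKM at 28 days in KO CMC livers, and 856 to 1062 FPKM against 627 to 664 FPKM in WT CMC livers. Among the peroxins the mean log2 level differed most for Pex10 in KO livers, by -0.61 at 90 days relative to 28 days with overlapping ranges, and next for Pex16 in KO livers, by -0.34 without overlap. No test was made of these differences, and the share of all tested genes with ranges apart between the times was not counted. Over all libraries the FPKM of all genes summed to between 514267 and 547757 at 28 days and between 573429 and 647703 at 90 days. Time and sex cannot be told apart in these levels either.

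**Figure D4:**
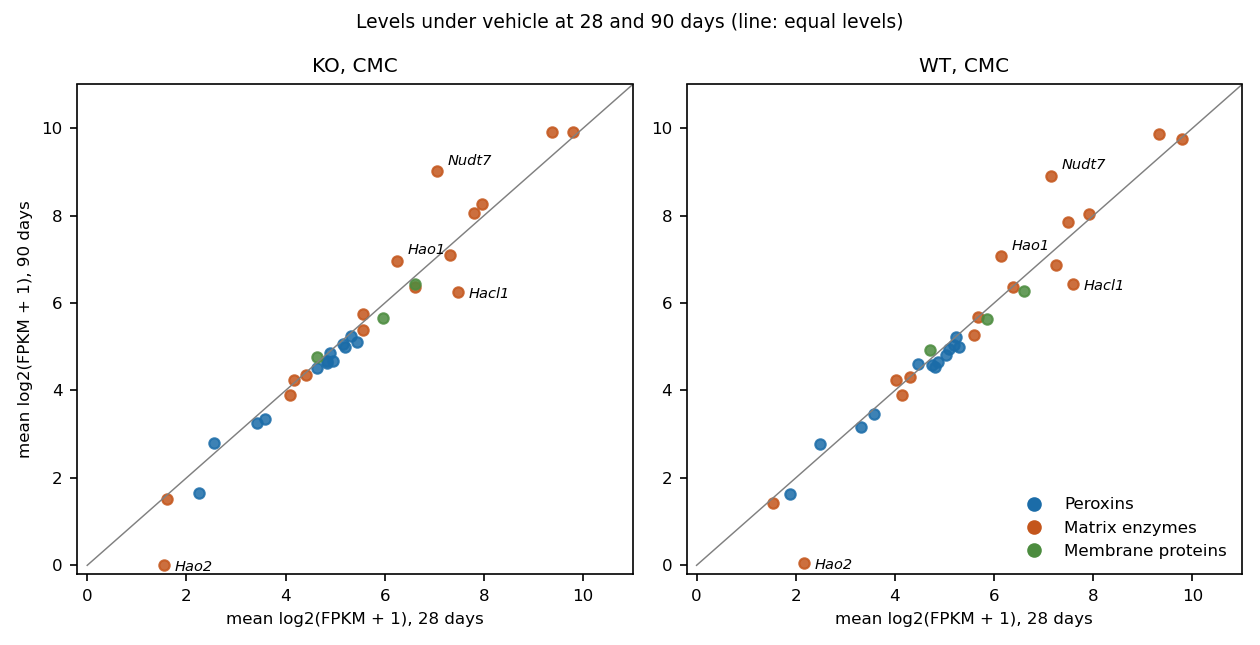
Each point is 1 of the 32 genes in KO CMC livers (left) or WT CMC livers (right), with the mean log2(FPKM + 1) at 28 days on the x axis and at 90 days on the y axis, and a line of equal levels. Nudt7 and Hao1 lie above the line, Hacl1 and Hao2 below it, and the peroxins sit near it.

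The macrophage knockout was compared with wild type under each agent and time and over the mean of the 4 strata. In limma 0 of 32 members were called in any of these 5 comparisons, where 0.0446% of all tested genes were called under CMC and 0.0178% under DEHP at 28 days, 0.00892% under CMC and 0.508% under DEHP at 90 days, and 0.392% over the mean. At an unadjusted p under 0.05 there were 1 and 4 members under CMC and DEHP at 28 days, 2 and 5 at 90 days, and 2 over the mean. The shares of all tested genes were 4.70% and 5.99% at 28 days, 6.78% and 11.9% at 90 days and 12.7% over the mean, against 3.12%, 12.5%, 6.25%, 15.6% and 6.25% of the members. Libraries of KO and WT were apart in 3 members under CMC at 28 days (2 higher and 1 lower, where 8.39% and 1.98% of all tested genes were), in 5 under DEHP at 28 days (5 higher and 0 lower, 6.09% and 3.07%), in 2 under CMC at 90 days (2 higher and 0 lower, 2.1% and 1.67%) and in 2 under DEHP at 90 days (1 higher and 1 lower, 5.64% and 1.69%). Over the mean of the strata the 95% intervals of all 32 members lay between -0.40 and 0.43, so that differences beyond about 0.43 in either direction lay outside them. The smallest p over that mean was that of Prdx5, at 0.10 (0.01 to 0.19, adjusted p = 0.334). The largest single value was that of Pex11a under DEHP at 28 days, 0.70 (0.20 to 1.203, adjusted p = 0.724), where WT DEHP replicate 5 was the low library, and it was 0.27 without that library. The smallest p of any single stratum was that of Pex7 under DEHP at 90 days, where all 4 KO libraries (39.0 to 44.5 FPKM) exceeded all 4 WT libraries (32.4 to 34.1 FPKM) at 0.29 (0.12 to 0.46, adjusted p = 0.116). Without the pancreas libraries this Pex7 difference was 0.27, with 1 KO DEHP library. The counts and shares of 90 days given here are from all libraries.

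Whether the knockout changed the response to DEHP was tested as the interaction of genotype and agent. In limma with all libraries 0 of 32 members were called at either time, where 0.0178% of all tested genes were called at 28 days and 0% at 90 days. With all libraries 0 and 2 members had an unadjusted p under 0.05 at 28 and 90 days. Of all tested genes 2.99% had such a p at 28 days. The 2 members at 90 days are 6.25% of the members, against 5.82% of all tested genes, and were Ephx2 at -0.49 (-0.90 to -0.08, adjusted p = 0.824) and Pex7 at 0.26 (0.02 to 0.50, adjusted p = 0.84). Without the pancreas libraries, with 1 KO DEHP library, the values were -0.27 for Ephx2 and 0.16 for Pex7. At 28 days the largest value was that of Hao2, 0.53 (-0.10 to 1.15, adjusted p = 1). The intervals were wide: at 28 days 29 of 32 and at 90 days 31 of 32 lay within a log2 difference of 1 in either direction. At 90 days 3 members were higher in both genotypes, 75% of the KO genes and 37.5% of the WT genes, and over the 32 genes the KO and WT responses had a Pearson's r of 0.80 and a Spearman's rho of 0.70. Here too the overlap and the correlations were not computed over all tested genes.

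Other genes of the organelle give these values a scale. Over the mean of the strata 15 of 16 genes of peroxisomal beta-oxidation rose and 0 fell, with a median log2 fold change of 0.93 against 0.20 for the 32 members. Ehhadh, the bifunctional enzyme, rose by 4.51 on the log2 scale (adjusted p = 1.68e-14). Of 3 genes of peroxisome fission 1 rose, Mff, at 0.17 (adjusted p = 0.0218), and Dnm1l and Fis1 did not pass. Of 13 other matrix enzymes 7 rose and 2 fell. Dhrs4, a reductase of carbonyl compounds, rose by 0.79 (adjusted p = 5.14e-11), Idh1, the NADP-dependent isocitrate dehydrogenase, by 0.43 (adjusted p = 1.89e-08), and Lonp2, the protease of the matrix, by 0.48 (adjusted p = 6.58e-07). Those that fell were Pipox, which oxidises pipecolate and sarcosine (-0.59, adjusted p = 1.21e-09), and Agxt, the aminotransferase that disposes of glyoxylate (-0.43, adjusted p = 0.000257). Of 7 further genes of ether lipids and the membrane 4 rose and 0 fell, led by Dhrs7b, a reductase of ether lipid synthesis, at 0.83 (adjusted p = 5.83e-10). Within ether lipid synthesis Gnpat and Dhrs7b thus rose, and Agps, at -0.05, did not pass.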

How the data were processed

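Whole-liver RNA was extracted with Trizol and made into TruSeq libraries, per the labels' protocols. The authors deposited 1 table of FPKM values per gene for 28 libraries. Cuffdiff is the tool, and mm10 or GRCm38 the genome build, in the submitters' processing notes, which give no aligner. FPKM is scaled to the fragments of each library, so a few very abundant transcripts, such as those of pancreas, lower the share left to other genes.

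Of 17792 genes, 11213 entered the tests, those reaching 1 FPKM or more in 3 or more libraries, with all 32 members among them. Values were taken as log2(FPKM + 1), which understates fold changes of low genes, and fitted in limma 3.58.1 (R 4.3.3) over all 8 groups, with 20 residual degrees of freedom, 95% intervals and Benjamini-Hochberg adjustment over all tested genes. Tables, motif searches and figures used Python 3.11.15, numpy 2.4.6, pandas 2.3.3 and matplotlib 3.10.9. Comparisons were DEHP against CMC and KO against WT in each stratum and over their mean, and the interactions. On simulated data 93.5% (WT, 28 days) and 96% (WT, 90 days) of 200 genes changed 2-fold were recovered, with 10 and 11 false calls. The simulated noise was independent and normal around the WT CMC means of 28 days for both times, without pancreas transcripts. It does not tell how often changes smaller than 2-fold are recovered.

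Values in every library were given for a few genes of each role and other members by ranges and counts. The members and lists were chosen with earlier results of these data known. Gdap1 and Dao were not analysed here. A few further genes of the organelle are not reported here. Depth came from 791 genes of 400 to 900 bases, in which 62.5% to 74.4% of low values lay within 0.15 of a whole step, so it is approximate. The most alike libraries had a correlation of 0.9916. Alternatives covered the pseudocount, the filter, the scaling, the libraries fitted, library weights, each library left out and a replicate block. Equal replicate numbers deviated together (every correlation above 0.1) only for DEHP against CMC in WT livers at 90 days, with correlations of 0.262, 0.252, 0.22 and 0.665. The last is that of replicate 4, a pancreas library under both agents. Deviations were taken from group means that include replicate 4, and the part of the pancreas transcripts in these correlations was not tested.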

Additional observations from a re-analysis of the deposited data

Results flagged for a closer look

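Of 128 groups of 4 libraries checked, 5 held a library far from the others by Dixon's test, which chance gives in about 1 in 20 groups. Pex6 had 35.41 FPKM in KO CMC replicate 4 at 90 days, against 29.32 to 29.63 FPKM in the other libraries of that group. Hao2 had 0.05 FPKM in KO CMC replicate 2 at 90 days, where the others were listed at 0. Phyh had 1120.43 FPKM in KO DEHP replicate 4 at 90 days, the library of that group without pancreas transcripts, against 1060.35 to 1065.71 FPKM. Hacl1 had 180.29 FPKM in WT DEHP replicate 4 at 90 days, a library with pancreas transcripts, against 123.15 to 131.85 FPKM. Mlycd had 43.17 FPKM in WT CMC replicate 4 at 90 days, also a library with pancreas transcripts, against 35.93 to 36.46 FPKM.

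The response to DEHP had a called difference between 90 and 28 days in 8 members, as the log2 difference of the responses by limma. The -1.99 of Hao2 is fixed by its 90-day values near 0 under both agents and compares no responses. The difference was -0.98 for Pex11a, -0.97 for Ephx2, -0.68 for Eci2, -0.53 for Pxmp4, -0.50 for Gnpat and -0.36 for Slc25a17. Pecr had 0.57.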

How the results depend on the processing

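Of 72 member calls over 13 comparisons, 49 were kept with each library left out in turn and 23 were lost in some, and none of the members' values called in the main analysis changed sign under any alternative run. All 72 were kept with a pseudocount of 0.1 and with a filter of 5 FPKM, 71 with library weights, 70 with the replicate block, 68 with no filter, 67 with upper quartile scaling, 58 with quantile normalization and 56 without the pancreas libraries. Of the calls that these fits give, fitting the compared groups only kept 26 and lost 16, and fitting 1 time point only kept 35 and lost 7. Fitting only the compared groups gave 7 members called in WT livers at 28 days, and 2 in KO and 3 in WT livers at 90 days. No filter and fitting 1 time point only gave 2 each in KO livers at 90 days, and quantile normalization 0. Without the pancreas libraries 0 were called in KO and 3 in WT livers at 90 days, and 4 for the difference of responses between times. With 1 library left out the counts ran from 13 to 17 (KO, 28 days), 7 to 14 (WT, 28 days), 0 to 5 (KO, 90 days), 2 to 9 (WT, 90 days), 7 to 10 (responses between times), 22 to 24 (mean response, with 9 to 10 peroxins and 11 to 13 matrix enzymes) and stayed at 0 for genotype and its interactions. The cause was not tested. The replicate block gave 17 members in KO and 13 in WT livers at 28 days, 5 in KO and 8 in WT livers at 90 days, 22 over the mean and 8 for the responses between times, and ended 2 calls, both of Pxmp4 (adjusted p = 0.0819 in WT livers at 28 days and 0.0552 between times, by limma). Upper quartile scaling moved the share of all calls that were higher to 45.8% against 57.0% (KO, 28 days), 50.4% against 62.6% (WT, 28 days), 57.1% against 79.1% (KO, 90 days) and 60.5% against 73.0% (WT, 90 days). Depth limits Pex10 and Agps most, which lay at a few FPKM or less. Hao2 lay there too, except in the DEHP libraries of 28 days, which held at least 10.1 FPKM.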
